A study of Mus musculus with 6 samples.

Results

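Integrins and laminins join cells to the matrix beneath them, and 34 genes for their chains were measured in the uterus of ovariectomized mice given P4, the standard abbreviation of progesterone, or Oil, a usual carrier of steroid hormones. The members were all genes whose platform annotation gave a probe set 1 symbol of an integrin alpha or beta chain or of a laminin alpha, beta or gamma chain. They made up 34 of the 18193 genes with such a probe set: 18 integrin chains outside the leukocytes, 6 leukocyte integrins kept apart, and 10 laminin chains. The chains Itga11 and Itgad were not analysed here. The 6 arrays came from females 8 weeks old, of mixed background and GATA2 f/f genotype, by convention a floxed allele on both chromosomes. Both groups carried that genotype and were ovariectomized. The labels name no recombinase, no dose and no time after treatment. A group of 3 arrays received P4 and a group of 3 received Oil, and the comparison asks which transcripts differ after the hormone. Whether each array stands for its own animal is not stated in the labels. The p-values therefore measure only how far these samples spread, and that spread may be technical.

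An integrin is a pair of an alpha and a beta chain that spans the cell membrane, binds matrix outside and couples to actin or keratin filaments inside. A laminin is a trimer of an alpha, a beta and a gamma chain, and laminins form the polymer at the base of every basement membrane. A laminin that contains the Lama3 and Lamb3 chains underlies epithelia, where it is bound by the integrin of Itga6 and Itgb4 at hemidesmosomes, the junctions that tie keratin filaments to the basement membrane. In the uterus, basement membranes surround the luminal and glandular epithelium, the vessels and each smooth muscle cell, and the embryo has to pass the epithelial one at implantation.

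Values are linear intensities of 1 probe set per gene, and differences are P4 minus Oil on the log2(intensity + 16) scale with their SE, which understates changes of dim genes. A chain is said to rise or fall where the limma adjusted p, over all 18193 genes, was under 0.05. The median probe set intensity of an array ran from 117 to 123, and precision is limited by there being 3 arrays a group. Keratins of epithelium, contractile genes of smooth muscle and stromal genes were all bright, as the labelled tissue implies. The summed intensity of 4 leukocyte markers ran from 800 to 3240 on the P4 arrays and from 1110 to 3217 on the Oil arrays. P4 array 1 and Oil array 1 were the lowest of their groups, and array 3 was the highest in both. In whole uterus, fewer cells of a type and less RNA per cell cannot be told apart.

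Outside the leukocyte integrins, 5 of 28 chains fell after P4 and 0 rose. The 5 were Lama3, Lamb3 and Lama4 among the laminins and Itgb4 and Itga2b among the integrins. Over all genes 13% passed in either direction, 6.94% lower and 6.08% higher, beside 17.9% lower among these 28 chains. Lama3 and Itgb4 were lower by at least 2-fold and called, which held for 0.572% of all genes. At an unadjusted limma p under 0.05, 9 chains were lower and 2 higher, or 39.3%, beside 26.6% of all genes, 14.7% lower and 11.9% higher. The median difference of the 28 was -0.07, against -0.01 over all genes. The groups of arrays did not overlap for 9 of the 28 chains, or 32.1%, beside 31.8% over all genes. The P4 arrays lay below in 8 of these and above in 1, where the shares over all genes were 17.5% and 14.3%. With 1 array left out, the count of called chains ran from 2 to 5. It was 2 without Oil array 1, 2 without Oil array 2 and 4 without Oil array 3, of which 1 was higher. It was 3 without P4 array 1, 3 without P4 array 2 and 5 without P4 array 3, of which 1 was higher. In the same order the calls over all 18193 genes were 1170, 993, 1760, 2302, 1401 and 1688, against 2368 with all 6 arrays. With the replicate number as a block in the fit 9 chains passed, 7 lower and 2 higher, where the shares over all genes were 20.9% in either direction, 11.6% lower and 9.29% higher. The chains added by the block were Itgb5 and Lamb2 as lower and Itga3 and Lama1 as higher. The labels do not say that the numbers pair the arrays, and that pairing was taken from these same data.

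**Figure D1:**
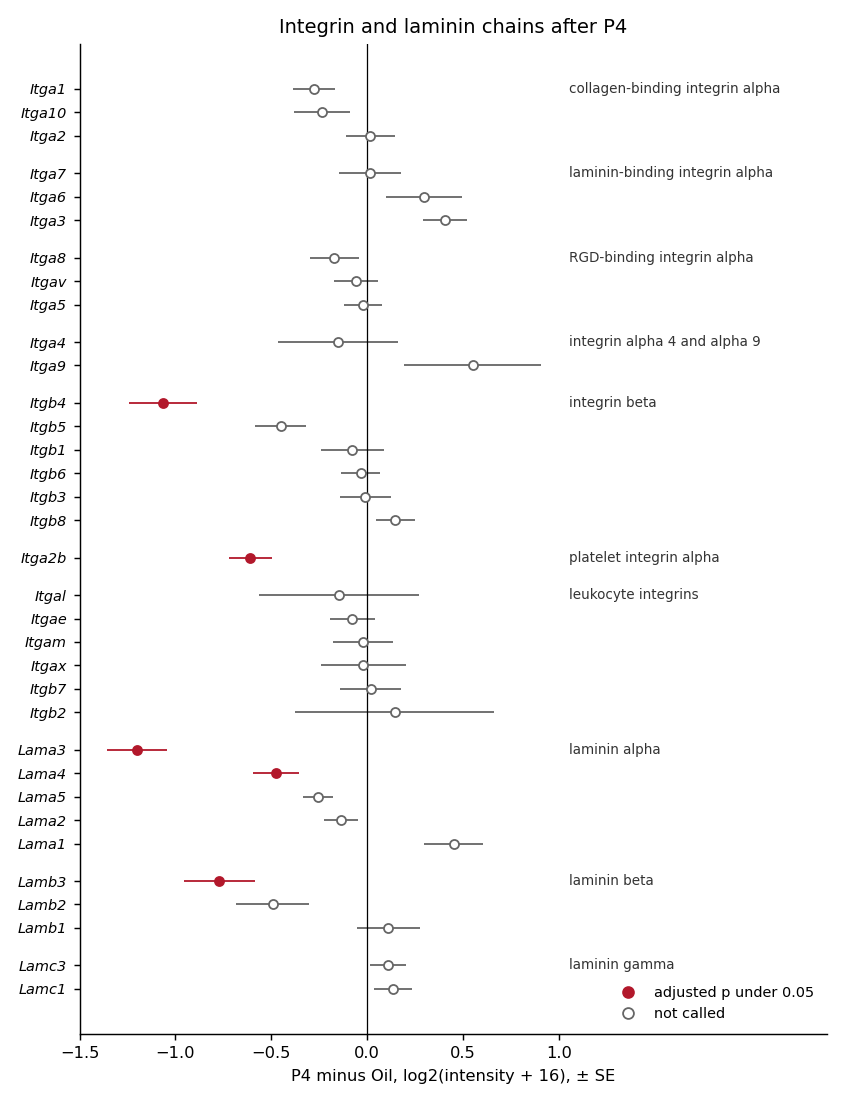
Difference of P4 minus Oil in log2(intensity + 16) for each of the 34 chains, by role, with bars of 1 SE over 3 arrays per group. Filled red points are the 5 chains with an adjusted p under 0.05, all to the left of 0, from -1.20 for Lama3 to -0.48 for Lama4.

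Lama3 and Lamb3, chains of that epithelial laminin, both fell. Lama3, the alpha chain of that laminin, had intensities of 183, 163 and 182 on the P4 arrays, against 484, 487 and 324 on the Oil arrays. The P4 arrays lay close together and all below the Oil arrays, of which array 3 was the lowest. The mean was 176 ± 11.0 after P4 and 432 ± 93.3 after Oil (SD, n = 3 each), a difference of -1.20 ± 0.16 or 2.30-fold lower on that scale (limma adjusted p 0.00353). Lama3 passed with any 1 array left out, at an adjusted p of at most 0.0219. The mean of its probe sets gave -0.63 (adjusted p 0.0108). A dimmer probe set of Lama3, with mean intensities of 34.8 after P4 and 37.3 after Oil, showed a difference of -0.07 ± 0.09.

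Lamb3, the beta chain of the same trimer, had 118, 94.6 and 171 on the P4 arrays and 220, 249 and 204 on the Oil arrays. The groups did not overlap, but P4 array 3 stood nearer to the Oil arrays than to P4 array 2. The means were 128 ± 39.3 after P4 and 224 ± 23.2 after Oil (SD, n = 3 each), a difference of -0.77 ± 0.19 (limma adjusted p 0.0325). Of the fits without 1 array, the call held in that without P4 array 3 (adjusted p 0.00846). In the other 5 the adjusted p was 0.0532 to 0.128, the highest of these without Oil array 2. Lamb3 has a single probe set with 1 symbol.

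The start region of Lamb3 is shown because the window of its downstream start site held a match to a motif of the progesterone receptor. Of the 5 chains that fell, windows of Lamb3 and Itga2b are described here, and those of Itgb4, Lama3 and Lama4 are not. RefSeq gives Lamb3 2 start sites on GRCm38.p6, and the window of the downstream one, chr1:193301993-193302292 on the plus strand, runs from 250 bases before to 50 after the start. Capitals mark the receptor half-site AGAACA, which begins at base 251 of the window, the first base of the transcript:
Lamb3: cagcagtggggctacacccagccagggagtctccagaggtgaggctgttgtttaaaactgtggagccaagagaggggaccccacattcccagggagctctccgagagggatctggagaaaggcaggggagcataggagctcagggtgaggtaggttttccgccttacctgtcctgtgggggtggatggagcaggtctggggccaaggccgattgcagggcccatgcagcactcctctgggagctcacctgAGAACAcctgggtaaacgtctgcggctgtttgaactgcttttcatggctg
Searched on both strands, AGAACA occurred in 19% of all 32851 RefSeq start windows of this length, so a match is common. Among the 25 windows of the 22 chains found in that table, 6 held it, or 24%. The GATA core GATAA occurred in 2 of the 25 (8%), against 25.4% of all windows, and the AP-1 motif TGANTCA in 3 (12%), against 7.81%. The window above holds no match to the other motifs, so none overlap there. The window of the upstream start site of Lamb3 holds no match to any of these motifs. These matches describe letters and were not tested as sites.

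Itgb4, which pairs only with Itga6 and anchors hemidesmosomes, fell about as much as Lama3. Its intensities were 184, 176 and 181 on the P4 arrays, against 419, 505 and 290 on the Oil arrays. As with Lama3, the P4 arrays were nearly equal and Oil array 3 was the lowest of its group. The means were 181 ± 4.13 after P4 and 405 ± 108 after Oil (SD, n = 3 each), a difference of -1.06 ± 0.18 or 2.09-fold lower (limma adjusted p 0.00857). The call held without any 1 array, at an adjusted p of at most 0.0394.

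The laminin-binding alpha chains did not follow Itgb4. Itga6, which also pairs with Itgb1, had 1087, 1325 and 1619 on the P4 arrays and 949, 917 and 1436 on the Oil arrays. These groups overlapped, and in both the third array was the highest. The difference of Itga6 was 0.30 ± 0.20 (limma adjusted p 0.418), and its dimmer probe set gave 0.52 ± 0.18. Itga3, which binds the same epithelial laminin as a pair with Itgb1, had 550.0, 604 and 511 after P4 and 392, 375 and 481 after Oil. All P4 arrays were above all Oil arrays, and the difference was 0.41 ± 0.11 (limma adjusted p 0.0559). With the replicate block the adjusted p of Itga3 was 0.0436. The mean of its probe sets gave 0.22 (limma adjusted p 0.107), and its dimmer probe sets had 0.25 ± 0.09 and 0.002 ± 0.11. Itga7, a laminin receptor of muscle, had a difference of 0.01 ± 0.16.

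Chains were set against a partner or a related chain within each array, in 3 pairs picked after their values had been seen, and the gaps are given without a test. The log2 gap of Itgb4 to Itga6 was -2.46, -2.80 and -3.05 on the P4 arrays and -1.15, -0.84 and -2.25 on the Oil arrays, a shift of -1.36. Lama3 against Lama5, the other alpha chain of epithelial basement membranes, shifted by -0.94. Lamb3 against Lamb1 shifted by -0.88.

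**Figure D2:**
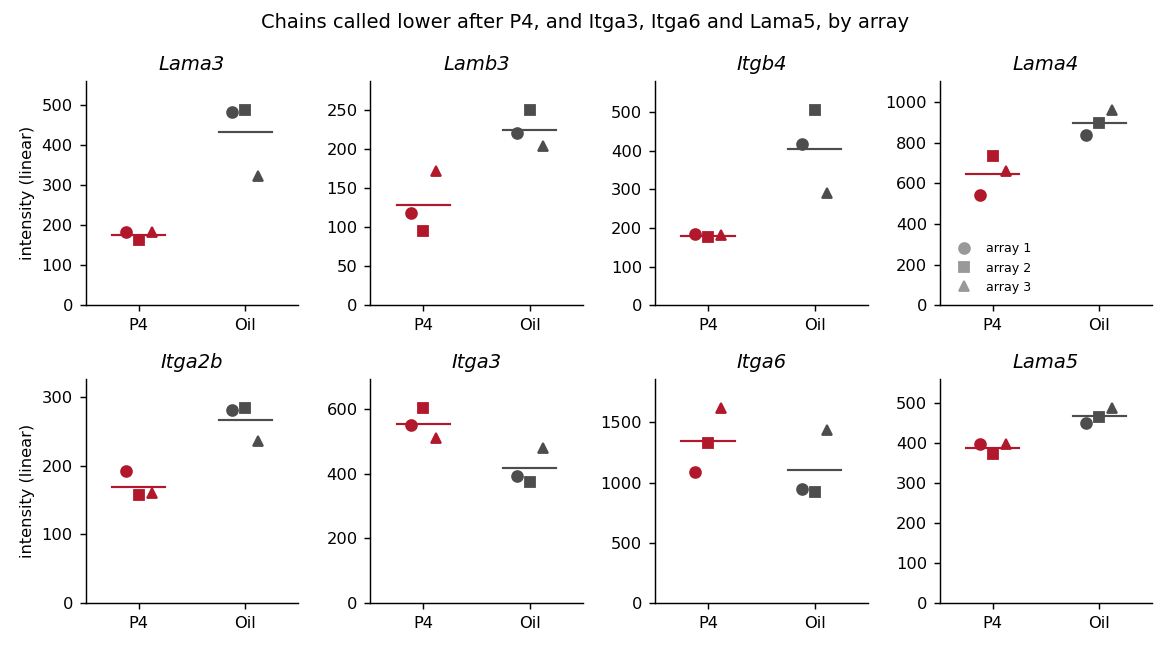
Linear intensity of 8 chains on each array, P4 left of Oil, with a bar at the mean of 3 arrays and a marker shape for each array number. Lama3 and Itgb4 show tight P4 arrays between 163 and 184 and scattered Oil arrays, while Itga6 overlaps between the groups and Itga3 lies higher after P4.

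Of the other laminin chains Lama4, the alpha chain of vessel and muscle basement membranes, fell moderately. It had 542, 735 and 661 on the P4 arrays, against 841, 897 and 961 on the Oil arrays. The groups did not overlap, and P4 array 1 was the lowest. The difference was -0.48 ± 0.12 (limma adjusted p 0.0378), with means of 646 ± 97.6 after P4 and 900 ± 60.1 after Oil (SD, n = 3 each). Of the fits without 1 array, the call of Lama4 held in that without P4 array 2 (adjusted p 0.036). In the other 5 the adjusted p was 0.0538 to 0.124, the highest of these without Oil array 2. It was 0.0713 with the mean of the probe sets of Lama4 and 0.128 with scaling to the hybridisation controls. A dimmer probe set of Lama4 had a difference of -0.09 ± 0.12.

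Lama5, the broad epithelial and vascular alpha chain, had 398, 374 and 397 after P4 and 451, 466 and 489 after Oil. The groups did not overlap, but the difference of -0.26 ± 0.08 missed the threshold (limma adjusted p 0.0708). The mean of the probe sets of Lama5 gave -0.09 (limma adjusted p 0.46), and its dimmer probe sets had -0.20 ± 0.10 and 0.19 ± 0.09. Of the chains Lama5 is known to join, Lamb1 had 1579, 2592 and 2030 after P4 and 1756, 1865 and 2017 after Oil, a difference of 0.11 ± 0.16. Lamc1, the gamma chain of most laminins, had 981, 1221 and 1162 after P4 and 979, 1002 and 1072 after Oil, a difference of 0.13 ± 0.10. For both, the groups overlapped and the limma adjusted p was 0.761 for Lamb1 and 0.467 for Lamc1.

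Lamb2, a beta chain of muscle and vessel laminins, had 441, 496 and 300.0 after P4 and 508, 691 and 541 after Oil. Its groups did not overlap, and its difference of -0.49 ± 0.19 had a limma adjusted p of 0.142, or 0.0244 with the replicate block. Lama1, an alpha chain best known from the embryo, was among the dimmest 30% of genes. It had 105, 110 and 74.0 after P4 and 78.0, 61.1 and 58.2 after Oil. The groups overlapped through P4 array 3, and the difference was 0.45 ± 0.15 (limma adjusted p 0.101, and 0.0248 with the block). Lama2, the alpha chain of muscle laminin, had a difference of -0.14 ± 0.09 and Lamc3 one of 0.11 ± 0.09.

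Among the remaining beta chains only Itgb5, a receptor for vitronectin with Itgav, stood away from 0. It had 905, 1176 and 1105 after P4, against 1335, 1713 and 1333 after Oil. The groups did not overlap, and the difference was -0.45 ± 0.13 (limma adjusted p 0.065, and 0.00861 with the replicate block). All 4 probe sets of Itgb5 were lower after P4, by differences of -0.38 to -0.50. Itgb1, the common partner of most alpha chains, had 434, 625 and 609 after P4 and 515, 544 and 697 after Oil, a difference of -0.08 ± 0.17. Itgb3, which pairs with Itgav and is studied as a marker of receptivity in the human endometrium, had 193, 218 and 162 after P4 and 198, 212 and 166 after Oil. Its arrays followed their numbers rather than the treatment, and its difference was -0.01 ± 0.13 (limma adjusted p 0.977). Itgb8 had a difference of 0.15 ± 0.10. Itgb6 was among the dimmest 30% of genes and had one of -0.03 ± 0.10.

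The chains that bind fibronectin and other RGD ligands did not pass. Itgav had 1719, 1656 and 2074 after P4 and 1775, 1753 and 2149 after Oil, a difference of -0.06 ± 0.12 (limma adjusted p 0.824). In both groups array 3 was the highest. Itga8, a receptor for nephronectin, had 190.1, 257 and 257 after P4 and 253, 259 and 280.4 after Oil, a difference of -0.17 ± 0.13. Itga5, the fibronectin receptor chain, had a difference of -0.02 ± 0.10. Another probe set of Itga5 had 0.29 ± 0.09 at an unadjusted limma p of 0.0151. It was the only one of 39 further probe sets of the chains to show the opposite sign at an unadjusted p under 0.05.

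Collagen-binding chains lay slightly below 0 or at it. Itga1 had 159.7, 182 and 165 after P4 and 214, 181 and 232 after Oil, a difference of -0.28 ± 0.11 (limma adjusted p 0.149). Its groups overlapped through Oil array 2. Itga10 had a difference of -0.24 ± 0.15, and Itga2, which was among the dimmest 30% of genes, one of 0.02 ± 0.13. Itga9, a receptor for tenascin and other ligands, had 252, 247 and 320.1 after P4 and 172, 340 and 97.2 after Oil. Its Oil arrays were scattered on both sides of the P4 arrays, with a difference of 0.55 ± 0.36 (limma adjusted p 0.403). Without 1 array that difference ran from 0.15 to 0.98. Dimmer probe sets of Itga9 had 0.05 ± 0.10 and 0.60 ± 0.14. Itga4, carried by leukocytes and some stromal cells, had 146, 381 and 319 after P4 and 239, 299 and 350.4 after Oil, a difference of -0.15 ± 0.31.

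Itga2b, the alpha chain of the fibrinogen receptor of platelets and megakaryocytes, fell. It had 192, 157 and 161 on the P4 arrays, against 281, 284 and 236 on the Oil arrays. The groups did not overlap, and the difference was -0.61 ± 0.11 or 1.53-fold lower (limma adjusted p 0.0126). The adjusted p of Itga2b was 0.0573 without Oil array 1, 0.0638 without Oil array 2 and 0.0504 without P4 array 2. Of 4 platelet markers, 0 were called and 0 had an unadjusted limma p under 0.05. Their differences ran from 0.03 for Pf4 to 0.14 for Gp1bb, and their summed intensity was 371, 552 and 515 on the P4 arrays and 355, 477 and 483 on the Oil arrays. The markers Ppbp and Gp9 were among the dimmest 30% of genes, and the part of platelets in the difference of Itga2b was not tested.

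The start window of Itga2b is shown because GATA factors are known to regulate this gene in megakaryocytes and the study concerns GATA2. It lies at chr11:102469834-102470133 on the minus strand of GRCm38.p6, per RefSeq, and holds none of the 3 motifs, so no letter is in capitals:
Itga2b: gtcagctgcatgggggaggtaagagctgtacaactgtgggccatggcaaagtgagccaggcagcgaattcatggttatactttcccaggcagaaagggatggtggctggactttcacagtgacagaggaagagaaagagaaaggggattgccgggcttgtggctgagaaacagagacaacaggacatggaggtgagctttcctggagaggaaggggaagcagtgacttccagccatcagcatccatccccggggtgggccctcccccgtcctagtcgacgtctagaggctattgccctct
That these letters are absent from the window says nothing of sites elsewhere.

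Of the 6 leukocyte integrins 0 rose and 0 fell by limma, and 0 had an unadjusted p under 0.05. Their differences ran from -0.15 ± 0.42 for Itgal to 0.14 ± 0.52 for Itgb2. Itgb2, the shared beta chain of leukocyte adhesion receptors, had 87.2, 292 and 362 after P4 and 119, 166 and 347 after Oil. Itgal, which pairs with it on lymphocytes and other leukocytes, had 88.8, 223 and 277 after P4 and 139.95, 168 and 331 after Oil. For both genes the spread within a group was larger than the difference between groups. The arrays that were high or low were those that were high or low in the summed leukocyte markers, which came to 800, 2523 and 3240 after P4 and 1110, 1472 and 3217 after Oil. Itgax of dendritic cells and macrophages had 76.0, 115 and 147 after P4 and 97.8, 96.7 and 144 after Oil. Itgb7, Itgae and Itgam stayed within differences of -0.08 to 0.02, and Itgam was among the dimmest 30% of genes. With the 4 leukocyte markers as a covariate, chosen after seeing the data, 0 of the 6 passed.

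**Figure D3:**
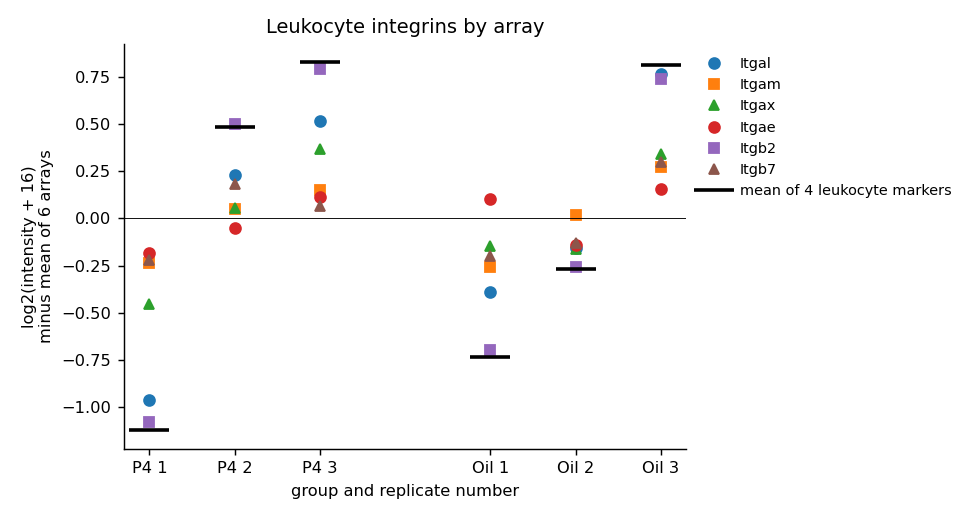
Log2(intensity + 16) of the 6 leukocyte integrins on each array, relative to the gene's mean over 6 arrays, P4 arrays left of Oil arrays. Black bars are the mean of 4 leukocyte markers, which Itgb2 and Itgal track across arrays of both groups.

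Of 15 further basement membrane genes and laminin receptors, 1 fell and 1 rose, or 13.3%, beside 13% of all genes. With the replicate block 2 fell and 2 rose, where the share of all genes was 20.9%. Ntn4, a netrin that inserts into laminin networks, had 765, 668 and 634 on the P4 arrays, against 1629, 1933 and 1177 on the Oil arrays, a difference of -1.15 ± 0.17 (limma adjusted p 0.00572). The mean of the probe sets of Ntn4 gave -0.67 (adjusted p 0.0114). As for Lama3 and Itgb4, no P4 array reached any Oil array, and Oil array 3 was the lowest of its group. Col15a1, a collagen at the outer face of basement membranes, rose to 630, 857 and 982 after P4, against 424, 300.3 and 453 after Oil (1.04 ± 0.20, adjusted p 0.0134, and 0.0556 without P4 array 2). Of the chains of type IV collagen 0 passed, from Col4a4 at -0.37 ± 0.11 to Col4a5 at 0.16 ± 0.08. At an unadjusted limma p under 0.05, 4 of the 15 genes were lower and 2 higher, beside 14.7% and 11.9% of all genes.

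Of 11 measured integrin ligands 1 fell and 0 rose, or 9.09% (2 fell and 1 rose with the replicate block), with 1 lower and 1 higher at an unadjusted limma p under 0.05. Npnt, nephronectin, a basement membrane ligand of Itga8, had 289, 332 and 289.92 after P4 and 388, 497 and 594 after Oil (-0.65 ± 0.15, limma adjusted p 0.0275, and up to 0.104 without 1 array). Of the fits without 1 array, that call held in the one without Oil array 1, and it was also lost with scaling to the hybridisation controls (adjusted p 0.056) and with the mean of its probe sets (-0.33, adjusted p 0.0996). Fn1, fibronectin, had a difference of -0.19 ± 0.13. Of 18 measured genes of adhesion complexes 1 fell and 0 rose, or 5.56% (2 fell and 2 rose with the replicate block), with 2 lower and 3 higher at an unadjusted p under 0.05. Beside both lists, 13% of all genes passed, or 20.9% with the block. At that unadjusted limma p, 14.7% of all genes were lower and 11.9% higher. Parva, a parvin that links integrins to actin, had 1042, 1279 and 1120 after P4 and 1754, 1822 and 1723 after Oil (-0.62 ± 0.09, limma adjusted p 0.00516). The call of Parva was lost without probe sets ending in _x_at, _s_at or _a_at, at -0.27 and an adjusted p of 0.251. Ilk and Tln1, which bind integrin tails or their complex, had differences of -0.19 ± 0.09 and -0.24 ± 0.13. The ligands Spp1, Cyr61 and Ctgf and the adhesion genes Fermt1 and Ptk2 were not analysed here.

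Other hemidesmosome parts were looked up after the calls of Lama3 and Itgb4 had been seen and are given without a test. Dst, whose epithelial form links Itgb4 to keratins, had 1984, 2176 and 2023 after P4 and 3446, 3383 and 3195 after Oil. Its difference was -0.69 ± 0.07, although Dst also has forms in muscle and nerve that these values cannot separate. Plec, plectin, had 1986, 2088 and 1776 after P4 and 2643, 2779 and 2403 after Oil, a difference of -0.42 ± 0.09. The mean of the probe sets gave smaller differences, -0.33 for Dst and -0.18 for Plec. Col17a1 was dim, with 30.3, 29.4 and 31.9 after P4 and 36.5, 60.1 and 43.5 after Oil, a difference of -0.41 ± 0.14. For each of the 3 genes all P4 arrays were below all Oil arrays, which held for 17.5% of all genes. Cd151, a tetraspanin that associates with laminin-binding integrins, had overlapping groups and a difference of -0.06 ± 0.08.

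Markers of epithelium were also lower on some P4 arrays. Krt18 had 3343, 1879 and 2817 after P4 and 3882, 4236 and 3968 after Oil, a difference of -0.62 ± 0.19 (limma adjusted p 0.0673). Krt19 had a difference of -0.34 ± 0.10, Krt8 one of -0.36 ± 0.25 and Epcam one of -0.40 ± 0.30, and 0 of the 4 passed, with 2 lower at an unadjusted limma p under 0.05. With the replicate block 3 of the 4 passed as lower, at an adjusted p of 0.0147 for Krt19, 0.031 for Krt18 and 0.0465 for Epcam. Over all genes 11.6% were lower with the block and 14.7% at that unadjusted p. The summed intensity of the 4 markers was 9625, 6174 and 10879 on the P4 arrays, against 11527, 11273 and 12525 on the Oil arrays. P4 array 2 was the lowest of its group in this sum, and also for Lama3, Itgb4 and Lamb3. For Itgb4 the P4 arrays differed little, with 184, 176 and 181. Among the Oil arrays the order was the opposite. There the sum was highest in array 3 and lowest in array 2, whereas Lama3, Itgb4 and Lamb3 were lowest in array 3 and highest in array 2. With the mean of the 4 markers as a covariate, chosen after seeing the data, the difference was -1.18 for Lama3 and -1.13 for Itgb4. The same fit gave -0.44 for Lamb3. The covariate left 0 of the 28 chains past the threshold (limma adjusted p 0.05003 for Lama3, 0.0734 for Itgb4 and 0.274 for Lamb3), while the count over all genes was 638. Markers of endothelium had differences of -0.34 to -0.04, beside -0.48 for Lama4, and 0 of 4 passed, with 2 lower at an unadjusted limma p under 0.05 and Pecam1 lower with the replicate block (adjusted p 0.0229). Of 4 stromal markers Lum fell (-0.90 ± 0.18, limma adjusted p 0.0156, and 0.0698 without Oil array 2), and of 5 smooth muscle markers 0 passed, with differences of -0.25 to 0.11. The part of these cells in the difference of Lama4 was not tested.

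**Figure D4:**
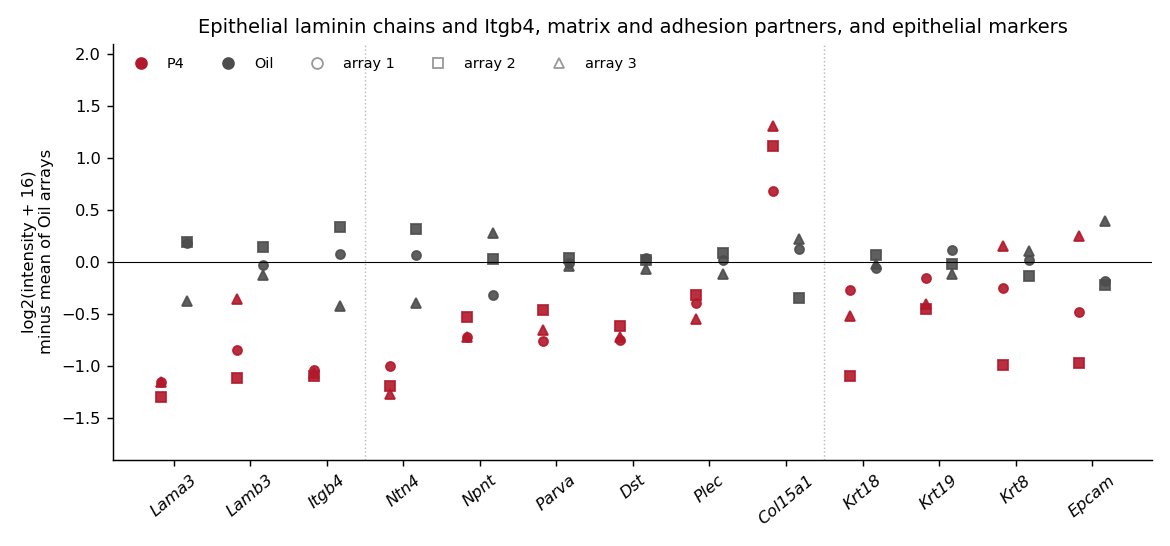
Log2(intensity + 16) on each array relative to the mean of the Oil arrays, P4 points left of Oil points, for Lama3, Lamb3 and Itgb4, for 6 partner genes and for 4 epithelial markers. The P4 points of Lama3, Itgb4, Ntn4 and Dst cluster below 0, Col15a1 lies above it, and those of Krt18, Krt8 and Epcam scatter with array 2 lowest.

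Lama3 and Itgb4 were thus the chains whose calls held in all 6 fits that left out 1 array, while those of Itga2b, Lamb3 and Lama4 did not. Without both arrays numbered 2, 0 of the 28 chains passed by limma and 171 genes passed in all. In that fit the differences were -1.06 for Lama3, -0.88 for Itgb4, -0.52 for Lamb3, -0.51 for Itga2b and -0.57 for Lama4. Scaling to the hybridisation controls shifted all differences upward, by 0.13 log2 at the median, and turned the split over all genes to 1927 higher and 624 lower, against 1106 higher and 1262 lower without it. Under that scaling Lama3, Lamb3, Itgb4 and Itga2b were called lower, with Lama3 at -1.07 beside an all-gene median of 0.12, and Itga3 was called higher (limma adjusted p 0.027).

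**Figure D5:**
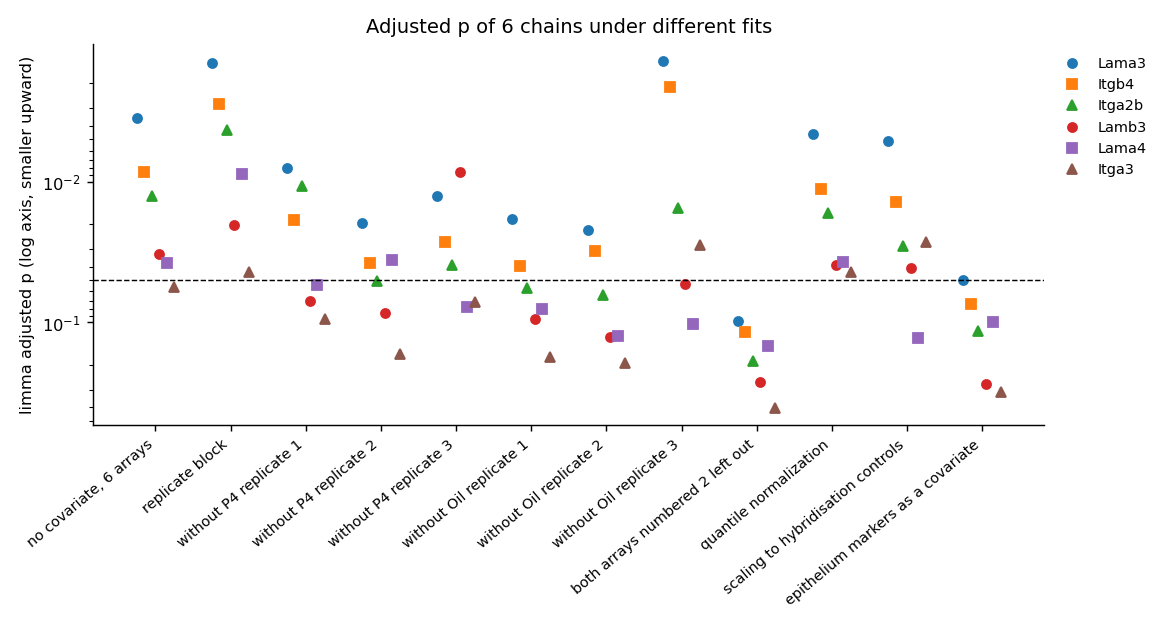
Limma adjusted p on a log axis, smaller values upward, of the 5 chains that fell and of Itga3 under 12 fits. The dashed line is the threshold of 0.05. Lama3 and Itgb4 stay past it without any 1 array and miss it without both arrays numbered 2 and with the epithelium markers as a covariate.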

How the data were processed

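The authors deposited an intensity on a linear scale for each of 45101 probe sets on every array, 64 of them controls. RNA was isolated with a column kit and labelled with biotin, per the labels' protocols; the summarising and scaling steps are not given in the sources used here. In the platform annotation 34945 probe sets carried 1 symbol, and 34741 of these matched the RefSeq table of GRCm38.p6, which changed 0 symbols. The probe set with the highest mean log2 value over 6 arrays stood for each gene. P4 was compared with Oil on log2(intensity + 16) by lmFit and trended eBayes of limma 3.58.1 (R 4.3.3). All 6 arrays entered, no covariate was used, and p-values were adjusted by Benjamini-Hochberg for 18193 genes. The test was tested on simulated data. Members, lists and alternatives were chosen with earlier results of these data known. Chains named with all array values are those called, the largest difference of each role, and Itgav, Itgb3, Itgb1, Itgb4, Lama5, Lamb1 and Lamc1; Itga6, Itga4, Itgb2, Itgax, Itgb5, Lama1 and Lamb2 were added after their values were seen. From the partner lists, called genes are named, others after their values were seen. Same-numbered arrays departed from their group means together (r of 0.53, 0.13 and 0.64 across genes, all over 0.1), so the number was taken to pair the arrays, from the data and not the labels. They were not set against arrays of different number, so these values alone cannot show a pairing. Alternatives were other scalings, pseudocounts of 1 and 50, probe set rules, a filter on the dimmest 30% of genes, moderation settings, the replicate block and arrays left out. Figures were drawn with matplotlib 3.10.9.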

Additional observations from a re-analysis of the deposited data

How the results depend on the processing

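The number of arrays sets the limits, and signal over background is unknown without detection calls. Of 318 values of 16 named chains under 20 alternatives, 262 kept direction and side of the threshold, 26 lost a call, 9 gained one and 21 changed sign. The cause was not tested unless given here. Over all genes the replicate block gave 3801 calls and leaving out 1 array 993 to 2302. The count was 171 without both arrays numbered 2, and 638 with the epithelium markers as a covariate, both fits with fewer residual degrees of freedom. For the 28 chains the counts were 9 with the block, 2 to 5 without 1 array, 0 without both arrays numbered 2, 0 with the epithelium covariate and 8 with the leukocyte covariate. The count was 2 without probe sets ending in _x_at, _s_at or _a_at, which removes the measured probe sets of Itgb4 and Lamb3 and the brighter one of Lama3 (-0.07 for Lama3 with the other). Leukocyte integrins had 0 calls in every fit run. Both covariates were chosen after seeing the data. The block ended no call of the 5 chains. Signs turned only among chains that were not called. Itgav had 0.067 with scaling to hybridisation controls, 0.028 with the mean of probe sets, 0.12 with the epithelium covariate and -0.16 to 0.035 without 1 array. Itgb1 had 0.049 with the scaling, 0.0030 with the mean of probe sets and -0.17 to 0.086 without 1 array. Itgb3 had 0.015 with quantile normalization, 0.0051 with median centring, 0.12 with the scaling, 0.0024 with the leukocyte covariate and -0.10 to 0.095 without 1 array. Lamb1 had -0.071 without both arrays numbered 2, -0.15 with the epithelium covariate and -0.067 to 0.29 without 1 array. Itgal had -0.44 to 0.30 without 1 array.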

Other observations

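The 5 chains that fell differed in which group was the more scattered. The SD of log2 values within a group was 0.03 on the P4 arrays and 0.39 on the Oil arrays for Itgb4, and 0.08 and 0.32 for Lama3 in the same order. Lamb3 had the opposite spread, 0.38 on the P4 arrays and 0.14 on the Oil arrays. Over the Oil arrays Itgb4, Lama3 and Ntn4 all had their highest value in array 2 and their lowest in array 3. The leukocyte marker sum was highest in Oil array 3, at 3217. Whether that difference between arrays plays a part in these values was not tested.

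Itga4, like the leukocyte marker sum, was lowest on array 1 of each group, with 146 after P4 and 239 after Oil. Its highest P4 value was on array 2, at 381, whereas the marker sum was highest on array 3. The spread of its log2 values was 0.69 after P4 and 0.26 after Oil, and its difference was -0.15 ± 0.31.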
